A study of Mus musculus with 3 samples.

Results

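Nts-expressing lymphatic endothelial cells are the small set of intestinal lymphatic endothelial cells (LEC) that carry transcripts of neurotensin, a secreted peptide hormone. They were chosen from single-cell counts by a fixed rule. A LEC was a cell with at least 500 detected genes, at most 15% mitochondrial UMIs (unique molecular identifiers, each standing for 1 captured RNA molecule), at least 1 Prox1 UMI, at least 5 Lyve1 UMIs, no Ptprc or Epcam UMI and at most 2 Dcn UMIs. Nts-expressing cells were LEC with at least 2 Nts UMIs, fewer than 2 Ptgs2 UMIs and fewer than 3 Cxcl9 UMIs. The rule found 1023 such cells among 17975 LEC and 22534 cells that passed the filter. Since Nts chose them, the Nts values below are a description with no test.

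The study profiled sorted endothelial cells of the small intestine, without the duodenum, of untreated wild-type C57Bl/6 female mice aged 9 to 10 weeks. There was 1 group of 3 libraries, each a pool of tissue from 4 mice, so the spread between libraries is a spread between pools and no library stands for a single animal. After epithelial removal in EDTA and DTT the tissue was digested for 60 min at 37 °C with Liberase TL and DNase I, and live CD45- CD31+ PDPN+ cells were enriched by sorting before 10x 3′ capture. The design holds no treatment, so each comparison below is between classes of LEC from the same library.

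Lymphatic capillaries of the gut, the lacteals, take up dietary fat packaged as chylomicrons and pass it to collecting lymphatics that pump lymph to the mesenteric nodes. Prox1 is the transcription factor that sets lymphatic identity, Lyve1 is a hyaluronan receptor of capillary LEC and Flt4 encodes the VEGF-C receptor. Neurotensin is best known in the gut as a hormone of enteroendocrine cells of the lower small intestine that is released after fat meals, and it acts through the receptors Ntsr1 and Ntsr2 and binds sortilin, encoded by Sort1.

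Nts is a protein-coding gene on the minus strand at chr10:102481756-102490486 (GRCm38, the build called mm10, GENCODE annotation). Its promoter is shown because Nts defines the cells and because their share followed the level of Fos, a subunit of the AP-1 factor, in the values given further on. The 250 bases upstream of the RefSeq start, chr10:102490419-102490668 on the minus strand (RefSeq sequence, GRCm38.p6), are printed 5′ to 3′; the start of the GENCODE model lies inside this window.
Nts: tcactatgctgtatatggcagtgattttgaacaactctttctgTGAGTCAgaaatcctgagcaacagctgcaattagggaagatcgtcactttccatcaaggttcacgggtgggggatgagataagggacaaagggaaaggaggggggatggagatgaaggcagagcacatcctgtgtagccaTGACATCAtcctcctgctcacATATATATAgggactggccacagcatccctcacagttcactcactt
The capitals mark an AP-1 motif, a CRE-like motif and a TATA run, each searched on both strands. The AP-1 motif TGAGTCA lies 207 to 201 bases upstream of the RefSeq start, and this motif, also searched as its reverse complement TGACTCA, occurs in 4.46% of 32851 RefSeq promoters of the same length. The CRE-like motif TGACATCA lies 67 to 60 bases upstream and occurs in 2.93% of promoters, while the perfect CRE TGACGTCA, found in 1.55%, is not among the letters of this window. The TATA run spans bases 46 to 38 upstream, and TATATAT, also searched as its reverse complement ATATATA, occurs in 2.78% of promoters. These matches are letters in a window, and binding was not measured.

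The Nts-expressing cells made up a similar share of LEC in every library. They were 317 of 5570 LEC (5.69%, exact Clopper-Pearson 95% interval 5.10% to 6.33%) in library 1. In library 2 they were 224 of 4454 (5.03%, 4.41% to 5.71%), and in library 3 they were 482 of 7951 (6.06%, 5.55% to 6.61%). The mean was 5.59% ± 0.52 (SD, n = 3), and the 3 intervals overlap. Intervals here cover counting error only.

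**Figure D1:**
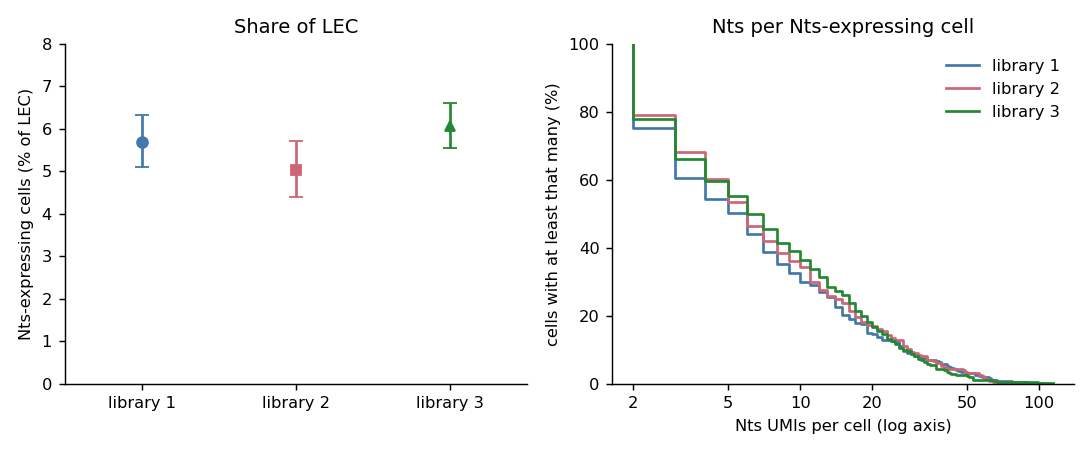
Left, Nts-expressing cells as a percentage of LEC in each library, with the exact 95% binomial interval. Right, the percentage of Nts-expressing cells that hold at least the number of Nts UMIs on the log axis; the 3 libraries follow nearly the same curve, with medians of 6, 6 and 6.5 UMIs.

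Nts was unevenly spread over the cells that express it. The median cell held 6, 6 and 6.5 Nts UMIs in libraries 1, 2 and 3, the lower and upper quartiles ran from 3 to 14, 14.25 and 16 UMIs, and the highest cell held 104, 85 and 115. Cells with at least 10 Nts UMIs were 32.5%, 36.2% and 39.2% of the set. The tenth of cells with the most Nts held 39.6% ± 2.94 (SD, n = 3) of its Nts UMIs. The distribution had a long upper tail in all 3 libraries, as the plot of Nts per cell shows. At the lower edge, 78, 47 and 106 cells had exactly 2 Nts UMIs, and 241, 162 and 300 LEC just outside the rule had 1. A further 24, 6 and 7 LEC had at least 2 Nts UMIs and were left out by the Ptgs2 or Cxcl9 limit. Summed over the set, Nts reached 1163, 1370 and 1335 CPM (UMIs of the gene per 1000000 UMIs of the class in a library), and these cells held 86.9%, 91.8% and 94.1% of all Nts UMIs found in LEC.

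Cells outside the lymphatic gate carried little Nts. At least 1 Nts UMI was found in 1763 of 17975 LEC (9.81%, median depth 7205 UMIs), in 9 of 550 fibroblasts (1.64%, 9304 UMIs), in 4 of 213 blood endothelial cells (1.88%, 7035 UMIs) and in 14 of 585 epithelial cells (2.39%, 25550 UMIs). Leukocytes had 0 of 299 (6686 UMIs), which allows a share of up to 1.00% when 3 counts are taken as the limit of a count of 0. After each cell was thinned to 3000 UMIs the shares were 6.71% in LEC, 0% in fibroblasts and leukocytes, 1.52% in blood endothelium and 0.707% in epithelial cells. LEC were the highest class before and after thinning. At least 2 Nts UMIs were seen in 2 epithelial cells, both in library 1, and in no fibroblast, leukocyte or blood endothelial cell of these gates. One of these epithelial cells held 27 Nts UMIs, and 1 of the pair carried the enteroendocrine granin genes Chga or Chgb. Within the Nts-expressing LEC, 15 enteroendocrine markers summed to 8 UMIs, and 9 of them were at 0, among them Chga, the peptide hormone genes Pyy, Gcg, Cck and Gip, and Neurod1, a transcription factor of the enteroendocrine lineage.

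The lymphatic label was checked on genes that the rule did not use, and Flt4, Pdpn and Reln were high in these cells. Mmrn1, a further lymphatic marker, had 0 UMIs in every LEC, Nts-expressing or not, so it separates nothing here. Why it was at 0 was not tested, and nothing is read about its expression in LEC. The VEGF-C receptor gene Flt4 had 1529, 1418 and 1388 CPM in Nts-expressing cells of libraries 1 to 3 against 1612, 1507 and 1408 CPM in the comparison cells defined next, and it was detected in 99.8% of the Nts-expressing cells. Podoplanin, encoded by Pdpn and used in the sort, had 228, 202 and 212 CPM against 241, 230.1 and 217 CPM. Reelin, encoded by Reln, which LEC secrete, had 1780.1, 1467 and 1558 CPM against 1883, 1627 and 1545 CPM. For each of these genes the ranges of the 2 classes overlapped. Within each library Flt4 and Pdpn were somewhat lower in Nts-expressing cells, and Reln was lower in libraries 1 and 2. Ccl21a, a capillary LEC gene called lower further on, had 9702, 10409 and 8750 CPM against 9763, 11433 and 9213 CPM. The comparison cells were the 7963 LEC (2473, 1988 and 3502) of the same libraries with no Nts UMI and a Fos share of UMIs at or above the library's LEC median. Depth and RNA quality were close in both classes: median UMIs were 8455, 7507 and 7425 against 8524, 7436 and 7076, and median mitochondrial shares were 1.80%, 1.57% and 1.72% against 1.80%, 1.61% and 1.69%.

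The other genes attached to the label did not separate the classes in this comparison. Selp encodes P-selectin, the adhesion receptor stored in Weibel-Palade bodies. It had 60.0, 110 and 92.1 CPM in Nts-expressing cells against 62.3, 70.2 and 64.7 CPM. It was level in library 1 and above in libraries 2 and 3, with a log2 fold change of 0.36 ± 0.10 (SE) and an edgeR quasi-likelihood Benjamini-Hochberg adjusted p = 0.0659. Without library 1 the change was 0.55 with adjusted p = 2.88e-08 by edgeR. With library 2 left out it was 0.26 (edgeR adjusted p = 0.129), and with library 3 left out 0.28 (edgeR adjusted p = 0.607). Each of these fits holds 2 libraries and leans on variance shared across genes, so a small p-value from them is not read as evidence. Cdkn1a, which encodes the cell cycle inhibitor p21, had 551, 741 and 605 CPM against 530.0, 607 and 609 CPM (0.079 ± 0.047, edgeR adjusted p = 0.462). Nppc, the gene of C-type natriuretic peptide, had 42.8, 68.1 and 125 CPM against 61.5, 74.8 and 77.7 CPM (0.14 ± 0.15, edgeR adjusted p = 0.761). It was lower in libraries 1 and 2 and higher in library 3, so leaving out library 1 gave 0.37 (edgeR adjusted p = 0.00061) while leaving out library 3 gave -0.36 (edgeR adjusted p = 0.351). The limit given for the Selp fits on 2 libraries holds here too. Of the label's genes, Nts differs by the rule that chose the cells, while Selp, Cdkn1a and Nppc depend on which LEC the set is compared with.

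The comparison cells are defined by Fos, an immediate early gene that many stimuli switch on within minutes. When the LEC of each library were ordered by the Fos share of their UMIs and cut into quartiles, Nts-expressing cells were 2.06% ± 1.12 (SD, n = 3) of the lowest quartile, 5.60% ± 0.339 of the second, 7.21% ± 0.901 of the third and 7.51% ± 1.35 of the highest. The lowest quartile had the smallest share in each library, 3.23%, 0.987% and 1.96%, and its values did not overlap those of the other quartiles. The level of Nts over all LEC of a quartile moved the same way, from 35.3, 19.7 and 16.4 CPM in the lowest to 122, 122 and 179 CPM in the highest. Median depth was also lower in the lowest quartile, at 7192, 6292 and 5946.5 UMIs against 8524, 7502 and 7042.5 in the highest, and its part in the share was not tested. In all, 60.6%, 69.2% and 67.8% of the Nts-expressing cells lay at or above the Fos median of their library's LEC. All comparison cells lay there by rule, and their Fos level, 9353, 7664 and 9202 CPM, was above that of the Nts-expressing cells, 7010.1, 5491 and 7086 CPM. All LEC without Nts had 5976, 4387 and 5499.8 CPM.

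**Figure D2:**
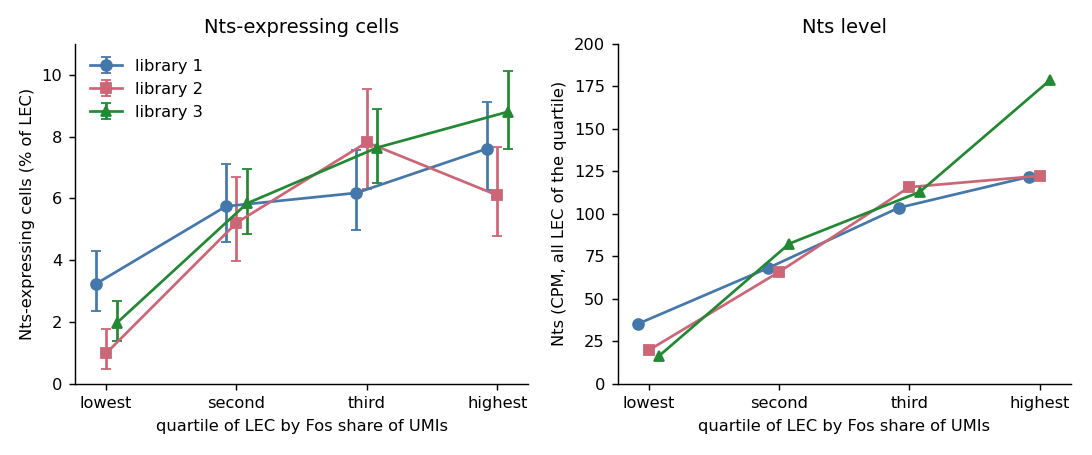
Nts by quartile of LEC ordered on the Fos share of UMIs, 1 line per library. Left, Nts-expressing cells as a percentage of the LEC of the quartile with exact 95% binomial intervals; right, Nts in CPM over all LEC of the quartile. The lowest quartile is the lowest point of every line in both plots.

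Against the comparison cells, Plat, Clca3a1, Tgfbi and Postn were higher and Itih5, Gpx3, Chchd10 and Kcnj8 lower in Nts-expressing cells. At an edgeR adjusted p under 0.05, 512 of 11870 genes passed, 4.31% of those tested, of which 271 were higher (2.28%) and 241 lower (2.03%). Without library 3, the largest, 101 genes passed. Scaling by total counts in place of TMM gave 373 higher and 192 lower genes. The fit keeps the library as a block because its classes were captured together; without the block 1 gene passed. Genes whose 3 Nts-expressing values lay wholly above or below the 3 comparison values were 1480, 12.5% of those tested.

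Plat had the largest rise outside the cell cycle among the genes named by the rule in the processing section. It encodes tissue plasminogen activator, the protease that converts plasminogen to plasmin, and lies at chr8:22757727-22782844 on the plus strand. Plat had 27.5, 21.1 and 21.8 CPM in Nts-expressing cells against 11.5, 9.31 and 7.60 CPM. All 3 Nts-expressing values were above all 3 comparison values, and the log2 fold change was 1.31 ± 0.13 (SE, edgeR adjusted p = 3.71e-05). Most Nts-expressing cells had no Plat UMI: it was detected in 15.1%, 10.3% and 10.4% of them, against 6.03%, 5.78% and 4.43% of the comparison cells. In library 2, 1 Nts-expressing cell held 22.5% of the Plat UMIs of the set. Clca3a1, which encodes a chloride channel accessory protein of the mouse lymphatic surface (chr3:144729677-144760977, minus strand), had 92.2, 119 and 70.3 CPM against 50.3, 73.6 and 47.6 CPM. It was higher within each library, although library 3 of the Nts-expressing cells lay under library 2 of the comparison cells, and it rose by 0.68 ± 0.07 (edgeR adjusted p = 5.55e-05).

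Tgfbi, Postn and Pdgfa encode secreted proteins and rose. Tgfbi, a TGF-β-induced adhesion protein of the matrix (chr13:56609523-56639562, plus strand), had 53.1, 80.3 and 42.7 CPM against 30.9, 45.6 and 33.0 CPM, higher within each library (0.62 ± 0.09, edgeR adjusted p = 0.00130). Postn, which encodes the matricellular protein periostin, had 88.6, 116 and 98.1 CPM against 59.6, 76.7 and 69.2 CPM with no overlap (0.53 ± 0.06, edgeR adjusted p = 0.000137). Pdgfa, a growth factor for mesenchymal cells, had 35.8, 48.1 and 48.7 CPM against 25.1, 26.4 and 30.1 CPM, again with no overlap (0.66 ± 0.09, edgeR adjusted p = 0.000405). Without library 3 Pdgfa kept its size at 0.65 but not its call (edgeR adjusted p = 0.0921).

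Cd9 and Anxa2 also rose. The tetraspanin gene Cd9 had 928, 1136 and 1030.3 CPM against 789, 887 and 876 CPM (0.25 ± 0.03, edgeR adjusted p = 0.000324). Anxa2, which encodes an annexin that holds plasminogen at the cell surface, had 438, 461 and 447 CPM against 356, 377 and 369 CPM (0.26 ± 0.03, edgeR adjusted p = 0.000243). Neither gene overlapped between the classes.

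Itih5, Gpx3, Chchd10 and Kcnj8 fell. Itih5, of the inter-alpha-trypsin inhibitor family of hyaluronan-binding proteins (chr2:10153571-10256529, plus strand), had 127, 76.1 and 102 CPM in Nts-expressing cells against 182, 136 and 154 CPM. Its 3 values lay below all comparison values, and it fell by 0.64 on the log2 scale (SE 0.06, edgeR adjusted p = 1.46e-05). Gpx3, a secreted glutathione peroxidase, had 72.3, 54.4 and 25.9 CPM against 109, 83.8 and 52.7 CPM, lower within each library (-0.75 ± 0.09, edgeR adjusted p = 0.000117). Chchd10, which encodes a mitochondrial intermembrane protein, had 47.4, 50.7 and 43.4 CPM against 91.9, 74.5 and 69.5 CPM with no overlap (-0.77 ± 0.08, edgeR adjusted p = 6.17e-05). Kcnj8, the gene of the ATP-sensitive potassium channel subunit Kir6.1, had 103, 93.5 and 97.9 CPM against 143, 120.4 and 115 CPM with no overlap (-0.38 ± 0.06, edgeR adjusted p = 0.00186).

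Of 51 genes named by the rule with a passing test, 11 passed under every alternative that kept the block and could test them: Plat, Clca3a1, Tgfbi, Postn, Cd9, Anxa2 and the cell cycle gene Ube2c on the higher side, and Itih5, Gpx3, Chchd10 and Kcnj8 on the lower. Leaving out library 3 ended 29 of the 51 calls, leaving out library 2 ended 5 and leaving out library 1 ended 2. Nav3, a microtubule-associated navigator and one of the 29, had 21.9, 12.7 and 17.0 CPM against 35.0, 25.2 and 26.4 CPM (-0.74 ± 0.10, edgeR adjusted p = 0.000623), and -0.80 without library 3 (edgeR adjusted p = 0.0573). Leaving out a library also leaves fewer sums to test.

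**Figure D3:**
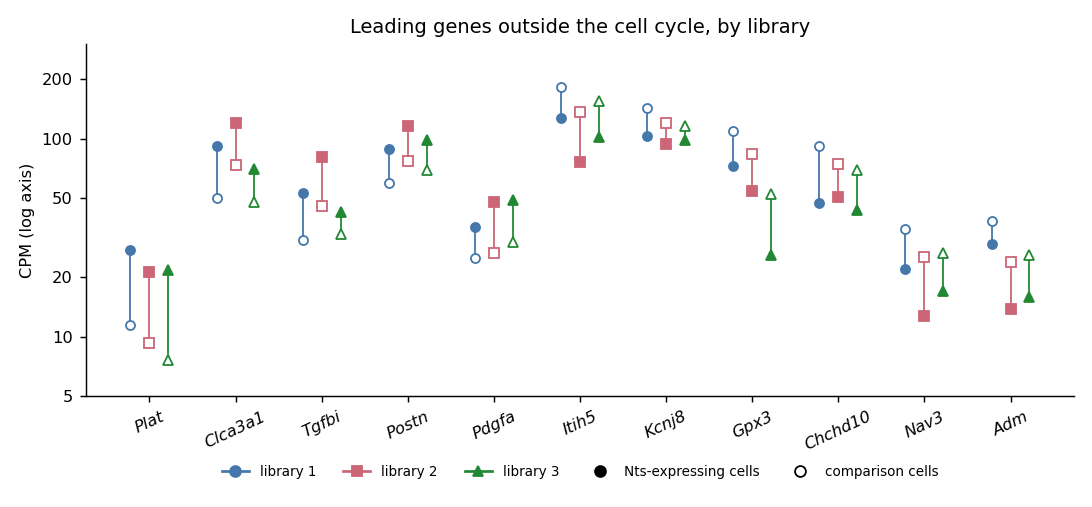
CPM on a log axis of 11 named genes outside the cell cycle, with Nts-expressing cells filled and comparison cells open, joined within each library. Plat, Clca3a1, Tgfbi, Postn and Pdgfa were higher and Itih5, Kcnj8, Gpx3, Chchd10, Nav3 and Adm lower in Nts-expressing cells of all 3 libraries.

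Few genes of the neurotensin system could be tested. Of 7 genes of the neurotensin system in the files, 2 were expressed enough to test, Sort1 and its relative Sorcs1, and neither passed. Sort1 had 6.63, 3.70 and 4.56 CPM against 5.94, 5.70 and 3.93 CPM (-0.02 ± 0.24, edgeR adjusted p = 1.00). Of 8 tested genes for peptide processing and regulated secretion, 0 passed; the carboxypeptidase gene Cpe came nearest, with 31.2, 50.2 and 28.1 CPM against 26.5, 38.6 and 22.3 CPM (0.29 ± 0.08, edgeR adjusted p = 0.0771, unadjusted p = 0.00413). Among 10 tested genes of secreted peptide regulators, 1 rose and 2 fell. Adm, which encodes adrenomedullin, a peptide that supports lymphatic growth and junctions, had 29.5, 13.7 and 15.8 CPM against 38.3, 23.8 and 26.0 CPM (-0.60 ± 0.11, edgeR adjusted p = 0.00371), and leaving out library 3 ended that call (-0.52, edgeR adjusted p = 0.206). Gdf15, a stress-induced cytokine of the TGF-β family, had 21.2, 47.5 and 33.1 CPM against 16.5, 31.6 and 26.8 CPM (0.38 ± 0.09, edgeR adjusted p = 0.0307). It did not pass when library 2 was left out (0.29, edgeR adjusted p = 0.179), nor when library 3 was (0.47, edgeR adjusted p = 0.213), and it stood at 0.068 once cells with Paneth cell transcripts were removed (edgeR adjusted p = 0.886).

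Lists of lymphatic position gave no single direction. Of 14 tested capillary LEC genes, 2 were higher (Clca3a1 and Flrt2) and 4 lower (Itih5, Mrc1, Nrp2 and Ccl21a), with a median of -0.09 on the log2 scale beside 0.00 over all genes. Of 10 tested genes of collecting vessels and valves, 1 was higher, the claudin gene Cldn11 (22.6, 19.0 and 25.4 CPM against 17.4, 16.2 and 16.1 CPM; 0.44 ± 0.11, edgeR adjusted p = 0.0422), a call that ended when library 3 was left out (0.29, edgeR adjusted p = 0.543). Of 13 junction genes 1 was higher and none lower, of 13 lipid-handling genes 1 was higher and 1 lower, and of 16 genes of hypoxia and glycolysis 0 passed. Of 16 genes for Weibel-Palade bodies and leukocyte adhesion, 2 were higher (Plat and Cd34) and 1 lower (Icam1). Of 21 genes for matrix and proteases, 2 were higher (Adamts1 and Col18a1) and 4 lower (Sparc, Adamtsl1, Thbs1 and Timp3). Of 16 genes of BMP and TGF-β signalling, 2 were higher (Tgfbi and Fstl1) and none lower. These counts stand beside 2.28% of all tested genes higher and 2.03% lower.

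Clca3a1 and Itih5, the capillary genes named on the higher and the lower side, were also followed cell by cell. Among LEC with at least 1 Clca3a1 UMI and no Itih5 UMI, 8.13%, 7.76% and 8.75% were Nts-expressing. Among LEC with Itih5 and no Clca3a1 UMI, 4.52%, 2.65% and 3.89% were. The classes did not overlap, and the Itih5 cells were the deeper ones, with median UMIs of 8900, 7716 and 7332 against 7569, 6880 and 6556.5. LEC with neither transcript, at 5.94%, 5.28% and 6.91%, lay between them. This pair of genes was chosen after its values were seen, and the shares are a description.

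The inflammatory and immediate early genes changed sign with the choice of comparison cells. Against the comparison cells, 16 of 25 immediate early genes were lower and none higher; this follows from the Fos rule that chose those cells, and nothing is read from it. Against all 16212 LEC without Nts, 744 of 12666 genes passed (5.87%; 4.27% higher and 1.6% lower), and 22 of 25 immediate early genes and 13 of 23 NF-κB and inflammatory genes were higher, with none lower in either list. Against LEC without Nts matched on deciles of the Fos share in each library, 436 of 12102 genes passed (3.6%; 2.39% higher and 1.21% lower), and 9 of 25 immediate early and 5 of 22 NF-κB genes were higher, with none lower. These comparisons share the Nts-expressing cells and many comparison cells.

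Icam1, the leukocyte adhesion receptor, shows the size of the shift. It had 1757, 1509 and 1962 CPM in Nts-expressing cells against 2388, 1808 and 2306 CPM in the comparison cells, a log2 difference of -0.34 that passed (edgeR adjusted p = 3.71e-05). The difference was 0.29 against all LEC without Nts (edgeR adjusted p = 0.000142) and -0.01 against the matched cells (edgeR adjusted p = 0.949). Selp and Cdkn1a moved the same way. Selp rose by 0.94 against all LEC without Nts (edgeR adjusted p = 2.43e-07) and by 0.63 against matched cells (edgeR adjusted p = 0.000168). Cdkn1a rose by 0.66 (edgeR adjusted p = 2.92e-09) and by 0.36 (edgeR adjusted p = 5.33e-05). Nppc rose by 0.43 against all LEC without Nts (edgeR adjusted p = 0.0251) and stood at 0.24 against matched cells (edgeR adjusted p = 0.409). Of p53 targets and growth arrest genes, 5 of 28 were higher against all LEC without Nts, 3 of 28 against matched cells and 0 of 27 against the comparison cells, where 2 were lower.

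Plat, Clca3a1 and Itih5 kept their sign and nearly their size under this choice, while the cell cycle genes described below did not keep their size. Plat was 1.31, 1.29 and 1.32 higher on the log2 scale against the comparison, matched and all LEC without Nts. Clca3a1 was 0.68, 0.61 and 0.58 higher, and Itih5 differed by -0.64, -0.69 and -0.71, in the same order.

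**Figure D4:**
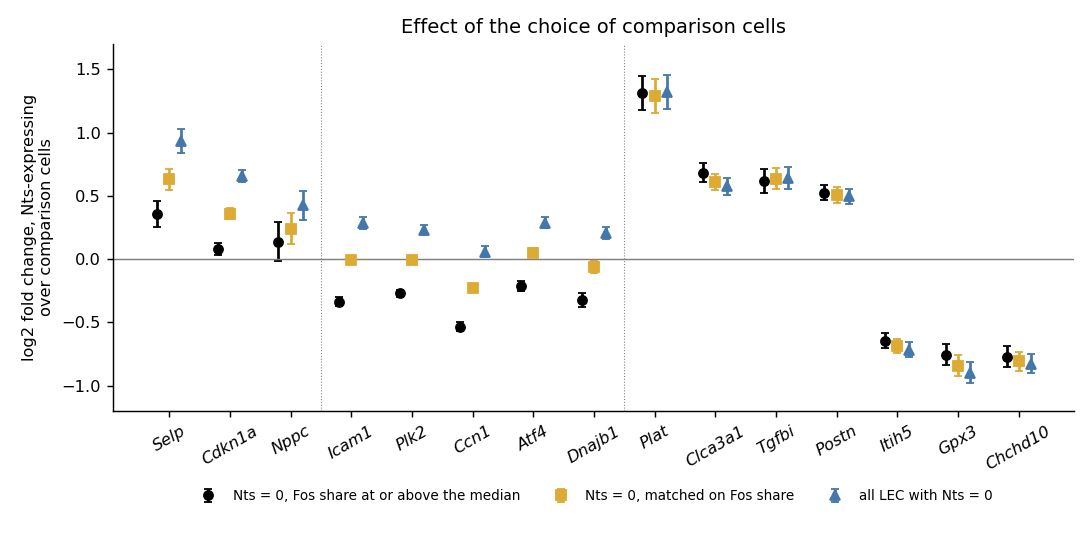
Log2 fold change with its SE for 15 genes against 3 sets of LEC without Nts: Fos share at or above the median, matched on Fos share, and all. Selp, Cdkn1a, Nppc and the stress and early genes move with the set, while Plat, Clca3a1, Tgfbi, Postn, Itih5, Gpx3 and Chchd10 keep their sign and size.

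The largest fold changes against the comparison cells were in genes of mitosis, and they rested on few cells. Of 14 tested proliferation genes, 8 were higher and none lower, with a median of 2.12 on the log2 scale. Ube2c, the E2 enzyme of the anaphase-promoting complex, had 30.5, 56.5 and 16.1 CPM against 2.95, 7.98 and 0.674 CPM (3.36 ± 0.23, edgeR adjusted p = 1.03e-06). Top2a, the topoisomerase of dividing cells, had 44.5, 73.4 and 26.6 CPM against 5.26, 10.0 and 2.70 CPM (3.04 ± 0.13, edgeR adjusted p = 1.67e-08). Stmn1, a regulator of microtubules, had 85.9, 87.2 and 79.4 CPM against 20.7, 32.1 and 17.9 CPM (1.89 ± 0.10, edgeR adjusted p = 1.13e-07). None of these genes overlapped between the classes. The size depended on the comparison cells. Ube2c was 1.97 higher against all LEC without Nts (edgeR adjusted p = 3.73e-08) and 2.27 higher against LEC matched on Fos share (edgeR adjusted p = 7.20e-07). Stmn1 was 0.89 (edgeR adjusted p = 9.13e-09) and 0.92 (edgeR adjusted p = 4.60e-06) higher in the same order. Cenpf, a kinetochore gene, went from 3.003 against the comparison cells to 1.37 (edgeR adjusted p = 1.21e-05) and 1.74 (edgeR adjusted p = 0.000295).

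Cells with at least 2 UMIs over Mki67, Top2a, Cdk1, Ccnb1, Ccna2, Birc5 and Ube2c were counted as cycling. They were 12, 7 and 12 of the Nts-expressing cells, or 3.79% (95% interval 1.97% to 6.52%), 3.13% (1.27% to 6.33%) and 2.49% (1.29% to 4.31%). They were 1.05%, 1.16% and 0.657% of the comparison cells and 1.68%, 1.87% and 1.21% of all LEC without Nts. The Nts-expressing values were above those of the comparison cells and of all LEC without Nts in each library. Cycling cells were 3.13%, 2.78% and 3.896% of the LEC with Ptgs2 (4, 1 and 3 cells) and 0%, 6.90% and 3.70% of those with Cxcl9 (0, 2 and 2 cells), classes defined further on. Among LEC with 1 Nts UMI, which lie outside the rule, they were 3.08%. The cycling Nts-expressing cells held 96.1% of the Top2a UMIs of the set, 97.0% of Ube2c and, of genes that did not define them, 92.4% of Cenpf, 95.4% of Prc1 and 81.5% of Stmn1. Cycling cells were also deeper, with median UMIs of 14484, 11988 and 17955.5 among Nts-expressing cells, against 8455, 7507 and 7425 over the whole set, and the part of depth in these shares was not tested. The level of Nts was 83.5, 99.8 and 96.2 CPM in all cycling LEC and 84.3, 83.5 and 101 CPM in other LEC, so it was not higher in cycling LEC in libraries 1 and 3.

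Without cycling cells in either class, 311 of 11795 genes passed (2.64%; 1.2% higher and 1.44% lower), and of 8 proliferation genes that could still be tested 0 passed; Ube2c was too low to test. Since genes of that list chose the cells removed, this count follows in part from the removal and nothing is read from it. Stmn1 was then at 0.47 (edgeR adjusted p = 0.218), and Plat, Clca3a1, Tgfbi, Postn, Itih5, Gpx3, Chchd10 and Kcnj8 were still called.

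**Figure D5:**
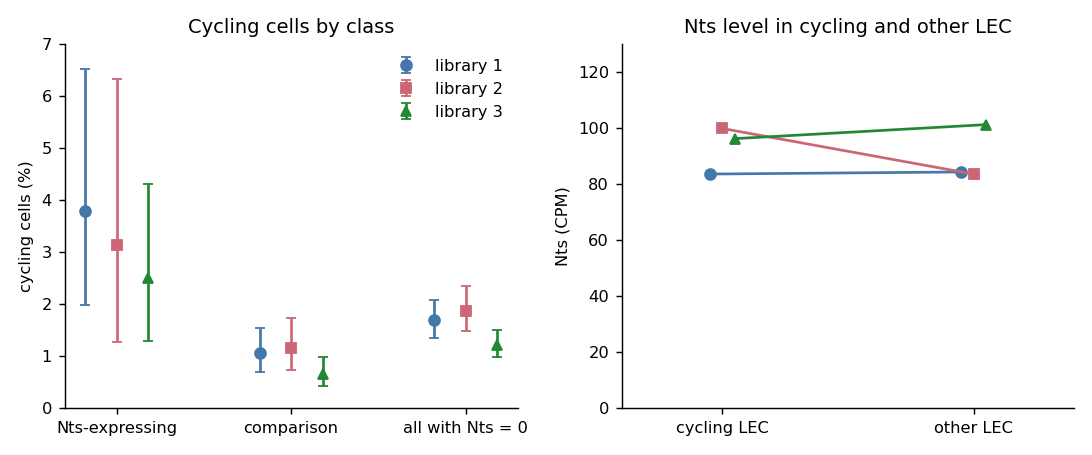
Left, cycling cells as a percentage of Nts-expressing LEC, comparison LEC and all LEC without Nts in each library, with exact 95% binomial intervals. Right, Nts in CPM in cycling and other LEC; the lines of libraries 1 and 3 are nearly level, and library 2 is higher in cycling cells.

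Promoters of the proliferation genes Top2a and Ube2c and of Cdc20, named outside the lists, are shown because these genes rose together. Promoters of such genes are known for CCAAT boxes and the cell cycle homology region (CHR). The 250 bases upstream of the RefSeq start (GRCm38.p6) are chr11:99024190-99024439 on the minus strand for Top2a, chr2:164769679-164769928 on the plus strand for Ube2c and chr4:118437344-118437593 on the minus strand for Cdc20, an activator of the anaphase-promoting complex. The capitals mark CCAAT, also searched as its reverse complement ATTGG, and the CHR, searched as TTTGAA on both strands (TTCAAA when read on the printed strand) and as the palindrome TTCGAA.
Top2a: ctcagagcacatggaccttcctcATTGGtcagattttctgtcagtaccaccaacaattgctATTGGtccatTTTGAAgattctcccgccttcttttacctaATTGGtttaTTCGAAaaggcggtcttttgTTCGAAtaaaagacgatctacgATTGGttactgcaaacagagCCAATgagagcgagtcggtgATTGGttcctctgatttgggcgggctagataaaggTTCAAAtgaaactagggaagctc
Ube2c: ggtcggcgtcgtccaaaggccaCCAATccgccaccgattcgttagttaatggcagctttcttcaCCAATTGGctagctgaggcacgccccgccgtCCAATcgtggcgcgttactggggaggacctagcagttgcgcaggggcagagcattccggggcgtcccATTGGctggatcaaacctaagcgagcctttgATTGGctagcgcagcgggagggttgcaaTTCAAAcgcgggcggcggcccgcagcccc
Cdc20: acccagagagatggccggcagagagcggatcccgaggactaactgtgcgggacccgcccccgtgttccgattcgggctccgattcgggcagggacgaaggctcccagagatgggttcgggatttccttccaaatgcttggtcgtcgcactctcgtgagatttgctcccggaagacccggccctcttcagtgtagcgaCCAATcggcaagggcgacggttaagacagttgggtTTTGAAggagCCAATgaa
In Ube2c 2 of the CCAAT matches overlap on opposite strands. Each printed promoter holds both motifs. The promoter of Cenpf was searched too and is not printed. It held CCAAT at 132 to 128 and 71 to 67 bases upstream and no CHR match. Of 11 proliferation genes with a RefSeq promoter, 9 held CCAAT, 5 a CHR and 0 the AP-1 motif. A gene was counted here if any of its promoters matched. Over all 32851 promoters, each counted singly, the shares were 33.8%, 17.1% and 4.46%, so the measures are not alike. At that AP-1 share, 0 of 11 genes tells little. The Nts promoter printed above has a single TTTGAA, left in lower case, 225 to 220 bases upstream, and no CCAAT among its letters.

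Among themselves, the Nts-expressing cells varied with the amount of Nts in some genes and not in others. Mean levels were taken over the 3 libraries in LEC with fewer than 2 Ptgs2 and fewer than 3 Cxcl9 UMIs, binned by Nts. Selp had 44.7 ± 0.285 CPM (SD, n = 3) in 15880 cells with no Nts, 49.9 ± 25.3 with 2 UMIs, 54.4 ± 37.0 with 3 to 4, 89.8 ± 66.0 with 5 to 9 and 120.4 ± 44.3 in 373 cells with 10 or more. Cdkn1a had 406 ± 22.4, 517 ± 111, 639 ± 64.1, 645 ± 162 and 683 ± 128 CPM in the same bins. Both were highest in the cells richest in Nts, but the SDs of neighbouring bins overlap. Fos ran from 5264 ± 814 CPM with no Nts to 7270.5 ± 1283 CPM with 10 or more. Plat was 9.96 ± 2.09 CPM with no Nts, 17.9 ± 5.88 with 2 UMIs and 27.9 ± 5.39 with 10 or more, with 23.0 ± 15.2 and 22.2 ± 10.9 CPM in the bins of 3 to 4 and 5 to 9 UMIs. Itih5 was 171 ± 24.4 CPM with no Nts, then 99.5 ± 43.7, 125 ± 41.0, 113 ± 14.2 and 85.4 ± 27.7 CPM in the bins in order. Nppc was 60.8 ± 9.18 CPM with no Nts and 91.4 ± 59.2 CPM with 10 or more. Clca3a1 and Tgfbi did not rise along the bins of Nts-expressing cells. Clca3a1 had 116 ± 28.6, 93.0 ± 49.0, 81.7 ± 24.6 and 90.0 ± 21.5 CPM in order. Tgfbi had 76.6 ± 32.3, 47.7 ± 19.8, 41.5 ± 28.2 and 66.6 ± 26.1 CPM. The 681 LEC with 1 Nts UMI lie outside the rule, and they had 43.2 ± 13.8 CPM of Selp and 97.4 ± 16.5 CPM of Clca3a1.

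Transcripts of other cell types were summed in the same way. Paneth cell genes encode antimicrobial defensins of the crypt base. Their 7-gene sum was 38.2, 435 and 89.5 CPM in Nts-expressing cells against 40.3, 138 and 47.3 CPM, 4 of 6 tested genes were called higher, and a single cell held 44.3%, 43.5% and 55.0% of the sum in each library. Mural and smooth muscle genes summed to 18.2, 609 and 16.3 CPM against 12.4, 55.3 and 33.9 CPM, with 2 of 6 called higher (Myh11 and Actg2). In library 2, 1 cell of 26314 UMIs held 1090 of the 1153 mural UMIs, 94.5%. Of 5 tested fibroblast markers 1 was called, Postn. The list summed to 91.9 to 138 CPM against 64.9 to 93.2 CPM, with Mfap5 at 0 in Nts-expressing cells. Postn itself gave 895 of the 969 list UMIs in Nts-expressing cells and 4374 of 4982 in the comparison cells. The sum therefore mostly repeats Postn and tells little about other fibroblast RNA. The part of fibroblast RNA in the Postn result was not tested. Blood endothelial genes summed to 967 to 1040.4 CPM against 956 to 1028 CPM. Myeloid and platelet genes were higher in the Nts-expressing cells of library 2, at 78.7 against 32.9 CPM and 13.2 against 3.67 CPM. Of 6 blood endothelial, 13 epithelial and 5 myeloid markers tested, 0 were called in each list, and the 5 erythroid markers were at 0. With cells holding any Paneth UMI left out of both classes, 424 genes passed, and without library 2 567 did.

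The Nts-expressing cells also differed from LEC that express Ptgs2, the inducible cyclooxygenase of prostaglandin synthesis. These were 241 LEC (128, 36 and 77) with at least 2 Ptgs2 UMIs, fewer than 2 Nts and fewer than 3 Cxcl9 UMIs, and 744 of 9226 genes passed (8.06%; 3.5% higher and 4.56% lower in Nts-expressing cells). Without library 3, 197 genes passed, and without library 1, 492. Clca3a1 had 92.2, 119 and 70.3 CPM in Nts-expressing cells against 13.0, 6.09 and 13.8 CPM in Ptgs2 cells (2.84 ± 0.23, edgeR adjusted p = 1.58e-09). Postn, at 88.6, 116 and 98.1 CPM, stood against 16.1, 21.3 and 19.3 CPM (2.40 ± 0.19, edgeR adjusted p = 1.44e-09), and Tgfbi, at 53.1, 80.3 and 42.7 CPM, against 6.91, 9.13 and 16.6 CPM (2.35 ± 0.27, edgeR adjusted p = 5.06e-07). These 3 genes were far lower in Ptgs2 cells in every library, with no overlap. LEC with no Nts and the same Ptgs2 and Cxcl9 limits were also above the Ptgs2 cells. Their means were 65.5 CPM of Clca3a1, 74.7 of Postn and 38.5 of Tgfbi, so low levels in Ptgs2 cells make up much of these gaps. On the other side, Itih5 had 255, 247 and 311 CPM in Ptgs2 cells (-1.39 ± 0.12, edgeR adjusted p = 2.72e-09), Kcnj8 had 290.1, 249.6 and 261 CPM (-1.46 ± 0.10, edgeR adjusted p = 8.35e-11), and Gpx3 had 194, 192 and 135 CPM (-1.81 ± 0.15, edgeR adjusted p = 1.76e-09). In the same LEC with no Nts, Itih5 and Gpx3 had means of 171 and 92.2 CPM, also below the Ptgs2 cells. Ranges of Nts-expressing and Ptgs2 cells did not overlap for Clca3a1, Postn, Tgfbi, Itih5, Kcnj8 or Gpx3. The share of all tested genes without overlap was not counted for Ptgs2 cells, and it was 12.5% against the comparison cells.

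Ptgs2 cells had more of the neutrophil chemokine Cxcl2, at 1000.1, 959 and 1293 CPM against 349, 445 and 608 CPM (-1.26 ± 0.08, edgeR adjusted p = 2.20e-11), and of the Notch target Heyl, at 50.7, 48.7 and 26.2 CPM against 14.9, 10.0 and 11.03 CPM (-1.72 ± 0.24, edgeR adjusted p = 8.77e-06). Of 22 NF-κB and inflammatory genes 11 were lower in Nts-expressing cells and none higher, and of 25 immediate early genes 13 were lower and 2 higher. These lists are close to the rule, since Ptgs2 is itself an inducible inflammatory gene, and nothing is read from their direction. Plat, at 27.5, 21.1 and 21.8 CPM, did not pass here against 6.91, 0 and 40.1 CPM (0.53 ± 0.39, edgeR adjusted p = 0.528).

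LEC that express Cxcl9, an interferon-γ-induced chemokine, numbered 103 (20, 29 and 54) with at least 3 Cxcl9, fewer than 2 Nts and fewer than 2 Ptgs2 UMIs. Against them 361 of 8693 genes passed (4.15%; 1.12% higher and 3.04% lower in Nts-expressing cells), and without library 3 143 passed. Of 20 interferon and antigen presentation genes 18 were lower in Nts-expressing cells and none higher, with a median of -1.37 on the log2 scale beside 0.01 over all genes. Cxcl10, a chemokine induced with Cxcl9, had 25.2, 175 and 31.2 CPM against 3507.5, 1552 and 1192 CPM (-5.07 ± 0.30, edgeR adjusted p = 3.92e-18). Cd74, the MHC class II invariant chain, had 77.3, 279 and 140.1 CPM against 1387, 1310.1 and 1076.5 CPM (-3.09 ± 0.18, edgeR adjusted p = 1.69e-18). The Nts-expressing cells were lower than the Cxcl9 cells in both genes in every library. This list is close to the rule, since Cxcl9 is itself interferon-induced and was limited in the Nts-expressing cells. Nothing is read from its direction.

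Genes outside that list also separated the Nts-expressing cells from the Cxcl9 cells. Clca3a1 had 19.8, 45.3 and 20.2 CPM in Cxcl9 cells (1.71 ± 0.25 higher in Nts-expressing cells, edgeR adjusted p = 2.80e-06), Itih5 had 203, 215 and 185 CPM (-1.01 ± 0.16, edgeR adjusted p = 9.89e-06), and Gpx3 had 218, 125 and 84.4 CPM (-1.53 ± 0.19, edgeR adjusted p = 5.87e-08). Stmn2, a microtubule regulator of the stathmin family, had 111, 116 and 92.8 CPM in Nts-expressing cells against 4.95, 30.2 and 33.0 CPM (1.96 ± 0.26, edgeR adjusted p = 2.75e-07). The Cxcl9 cells held 27 Stmn2 UMIs in all. Its level in other LEC is not given here, so the difference is not read as a trait of Nts-expressing cells. Selp was the other way round, with 89.2, 359 and 110.03 CPM in Cxcl9 cells (-0.93 ± 0.19, edgeR adjusted p = 0.000689), a call that ended when library 2 was left out (-0.37, edgeR adjusted p = 0.670). A mitochondrial limit of 10%, which took the Cxcl9 cells of library 2 from 29 to 28 and its Nts-expressing cells from 224 to 223, gave 0.073 (edgeR adjusted p = 0.958). The comparisons share the Nts-expressing cells, so their values are set side by side and no overlap between them was tested.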

How the data were processed

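The deposited matrices hold UMI counts per gene and cell barcode for 3 libraries, made by the authors with Cell Ranger 6.1.2 after bcl2fastq 2.2 on mm10, per the submitters' processing notes, with an annotation release not given in the sources used here. The files held 6931, 7678 and 9932 barcodes with 58857545, 69231794 and 74571090 UMIs, and 6359, 6707 and 9468 passed the filter of 500 genes and 15% mitochondrial UMIs. Of these, 5570, 4454 and 7951 were LEC. Pairs of libraries shared 19, 13 and 30 barcodes. No doublet caller was run; cells above the 95th percentile of UMIs were left out as an alternative.

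Counts were summed per library and class and tested with edgeR 4.0.16 (R 4.3.3; filterByExpr, TMM, quasi-likelihood, library as block, because the classes of a library were captured together from 1 pool), with Benjamini-Hochberg adjustment over all genes and a threshold of 0.05. The test was checked on simulated counts. The 9 genes of the rule were left out of the tests. CPM are per 1000000 UMIs of the class, and a log2 fold change is given with its SE. With library as a block, p-values rest on the spread of the difference between classes across these 3 pools. They also lean on a variance estimate shared across genes, since the fit leaves 2 residual degrees of freedom. A small p-value can therefore stand beside pools that differ in sign, as for Nppc without library 1. The p-values do not measure the spread in level between pools or between mice.

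Named genes were Nts, Selp, Cdkn1a and Nppc; per list, the largest passing change in either direction with 1 sign in all libraries and at least 20 CPM; and 8 more in each direction outside the lists, with 4 more in each direction against Ptgs2 and Cxcl9 cells. Flt4, Pdpn, Reln, Mmrn1, Cd34, Flrt2, Mrc1, Nrp2, Fstl1, Col18a1, Sparc, Thbs1, Timp3, Sorcs1, Myh11, Actg2, Top2a, Sort1, Cpe and Cd74 are named outside this rule, as members of lists or as markers. The cells, lists and label genes were chosen with earlier results of these data known. Alternatives were DESeq2 1.42.0, other scaling and filters, thinning to 3000 UMIs, other Nts, Lyve1 and mitochondrial limits, other comparison cells, no block and leaving out each library.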

Additional observations from a re-analysis of the deposited data

How the results depend on the processing

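The count of called genes against the comparison cells, 512, went to 236 with DESeq2, 837 with no filter on low counts, 239 with cells thinned to 3000 UMIs, 1097 with at least 1 Nts UMI and 311 without cycling cells, and ran from 101 to 570 with a library left out. The pairing comes from the shared pool of a library: with no replicate block the count was 1. Against Ptgs2 cells, 744 calls became 249 with DESeq2, 303 with no replicate block and 365 when thinned, and 197 to 861 with a library left out. Against Cxcl9 cells, 361 became 152, 189 and 157 in the same order, and 143 to 326. The other alternatives run stayed within 1.5 times the count, and matching on UMI count was not run for the Ptgs2 and Cxcl9 comparisons, which have few cells. The share of Nts-expressing cells, 5.59% of LEC, was 9.39% at 1 or more Nts UMIs, 4.33% at 3, 3.24% at 5, 3.60% with LEC thinned, and 5.36% to 5.88% with a library left out.

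Some log2 values of named genes reversed. Against all LEC with no Nts they were 0.29 for Icam1, 0.23 for Plk2, 0.11 for Per1, 0.059 for Ccn1, 0.24 for Cxcl2, 0.29 for Atf4, 0.21 for Dnajb1, 0.20 for Pgf, 0.15 for Neat1 and 0.11 for Egr4. With cycling cells also left out they were 0.31, 0.21, 0.17, 0.075, 0.28, 0.30, 0.24, 0.19, 0.17 and 0.19 for Icam1, Plk2, Per1, Ccn1, Cxcl2, Atf4, Dnajb1, Pgf, Neat1 and Egr4. Atf4 was 0.051 against cells matched on Fos share. At 1 or more Nts UMIs, Cdkn1a was -0.14, Cebpd -0.012 and Adamts1 -0.030. Against Cxcl9 cells, Cd36 was 1.30 without the deepest cells, Selp 0.073 at 10% mitochondrial UMIs, and with a library left out Ube2c ran from -1.51 to 4.35, Cenpf from -1.31 to 2.53 and Prc1 from -1.19 to 3.26, the highest without library 3. The cause of these changes was not tested, save that fewer sums or cells were used where some were left out. Matching on Fos share, leaving out cycling cells or cells with Paneth UMIs, and the gates on Clca3a1 and Itih5 were added after seeing the data.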
